A study of Mus musculus with 4 samples.

Results

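The broad PRDM6 peaks were the 859 matched peaks, of 13977 in all, that were chosen by their width of 1500 bp or more. They made up 6.15% of the peaks and covered 1.62 of 10.0 Mb, or 16.2% of the sequence under all peaks. The width is that of the matched peak, which joined the calls of both replicates from the outermost start to the outermost end. The other 13118 peaks were narrower and served as the comparison. Width, peak p-values and the match between replicates all come from the same peak calls, so these are described without a test. Questions could be asked of measures that the choice did not use, namely where the summits lay, near which genes, and on what sequence. Measures taken over the whole peak, such as whether it covers a gene start, also depend on its width.

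ChIP-seq was performed in smooth muscle cells (SMCs) that had been isolated from the outflow tract of mouse embryos and kept in culture. The study gives the embryos' age as E17.5 with its ChIP-seq results and as E18.5, with the genotype Prdm6 fl/fl and no Cre named, with its cell isolation. All cells carried a lentivirus that overexpressed FLAG-tagged PRDM6, the Input libraries included, so what was precipitated is the tagged protein rather than the cells' own. There were 2 groups among the 4 samples, PRDM6 ChIP (2 libraries precipitated with an anti-FLAG antibody) and Input (2 libraries without precipitation). The study describes the precipitations once as 2 made on the same sample and once as independent replicates, so the spread between them may be technical. The replicates are called first-listed and second-listed after their order in the peak list, because the list did not name them. Input entered only through the peak calls, so no Input value could be set beside those below.

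PRDM6 belongs to the PR domain family of zinc finger proteins, is found in vascular smooth muscle and is studied as a regulator of SMC genes. A factor that contacts DNA at a short sequence usually leaves a compact ChIP-seq peak, whereas chromatin marks and proteins spread along a promoter or an enhancer give extended ones. AP-1 dimers of Fos and Jun proteins and TEAD proteins, the DNA-binding partners of YAP and TAZ, are common occupants of enhancers in mesenchymal cells. CpG-rich promoters are typical of broadly expressed and developmental genes.

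To show what lay under broad peaks, 121 bp of the mm10 (GRCm38) plus strand, 5′ to 3′, are printed around the summit of selected peaks, from windows free of annotated exons. The summit is the position listed for the matched peak, which need not be the summit of either replicate call. It lay within 60 bp of a replicate summit, and so inside such a window, in 289 broad peaks (33.6%) and in 53.8% of narrower peaks. The first set holds the 5 strongest broad peaks with an AP-1 sequence, TGACTCA or its reverse complement TGAGTCA, in that window, and the capitals mark it. The windows were chr9:65200738-65200858 for Parp16, chr1:120757400-120757520 for En1, chr15:103221547-103221667 for Cbx5, chr1:153585939-153586059 for Npl and chr19:20393731-20393851 for Anxa1. Parp16 and Anxa1 each held 2 such sequences, and 92 of the 121 bases at Parp16 were masked as repeats in the reference. The listed summit was 3 to 9 bp from the nearest replicate summit in 4 of them and 155 bp from it at Anxa1. Peaks carry the name of the assigned gene. The one named En1 lay 154299 bp from the start of En1 and covered the start of Gm29346.
Parp16 (AP-1): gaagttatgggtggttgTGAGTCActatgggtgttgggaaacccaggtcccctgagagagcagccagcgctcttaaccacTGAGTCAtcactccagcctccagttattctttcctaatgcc
En1 (AP-1): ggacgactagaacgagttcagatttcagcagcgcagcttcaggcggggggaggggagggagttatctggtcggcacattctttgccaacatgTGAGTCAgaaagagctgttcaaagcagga
Cbx5 (AP-1): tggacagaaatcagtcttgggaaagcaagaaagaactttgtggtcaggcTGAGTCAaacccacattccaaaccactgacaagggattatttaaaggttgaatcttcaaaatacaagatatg
Npl (AP-1): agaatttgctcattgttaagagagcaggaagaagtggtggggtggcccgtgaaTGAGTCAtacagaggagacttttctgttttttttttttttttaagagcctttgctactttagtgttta
Anxa1 (AP-1): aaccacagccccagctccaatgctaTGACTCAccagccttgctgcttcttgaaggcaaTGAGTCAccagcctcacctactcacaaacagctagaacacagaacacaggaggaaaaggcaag

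The second set holds the 3 widest CpG-rich broad peaks over a transcription start site (TSS), where capitals mark each CG dinucleotide. CpG-rich means a GC content of at least 50% and a ratio of observed to expected CG of at least 0.6 over the peak. The windows were chr5:142818368-142818488 for Tnrc18, chr1:59481553-59481673 for Fzd7 and chr12:80113254-80113374 for Zfp36l1, with 8, 6 and 11 CG dinucleotides. None of them held the AP-1 sequence. The listed summit was 1 bp from the nearest replicate summit at Zfp36l1 but 285 bp from it at Fzd7 and 864 bp at Tnrc18, so the last 2 windows show sequence inside the peak and not at a called summit.
Tnrc18 (CG): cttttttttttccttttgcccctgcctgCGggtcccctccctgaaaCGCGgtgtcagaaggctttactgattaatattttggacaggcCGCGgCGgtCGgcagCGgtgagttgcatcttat
Fzd7 (CG): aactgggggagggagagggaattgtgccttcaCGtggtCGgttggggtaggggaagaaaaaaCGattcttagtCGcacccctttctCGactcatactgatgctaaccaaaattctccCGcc
Zfp36l1 (CG): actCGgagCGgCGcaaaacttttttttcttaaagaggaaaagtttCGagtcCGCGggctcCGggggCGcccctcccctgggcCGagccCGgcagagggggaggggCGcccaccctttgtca

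The third set holds the widest peak, at Col3a1, and the strongest ones, assigned to Slc44a3 and Ptprm, which had no AP-1 sequence in the window and are therefore printed without capitals. The windows were chr1:45311371-45311491, which lay 107 bp from the nearest TSS at its summit, chr3:121585122-121585242 between genes, and chr17:67241998-67242118 in an intron of Ptprm. The listed summit at Col3a1 was 2 bp from the first-listed and 2185 bp from the second-listed summit, and at the other two it was within 36 bp of both. The Col3a1 window held no CG dinucleotide. At Ptprm, 73 of 121 bases were masked as repeats, most of them a run of alternating g and a.
Col3a1 (widest): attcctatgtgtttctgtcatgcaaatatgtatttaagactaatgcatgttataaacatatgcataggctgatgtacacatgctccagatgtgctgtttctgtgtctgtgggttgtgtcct
Slc44a3 (strongest): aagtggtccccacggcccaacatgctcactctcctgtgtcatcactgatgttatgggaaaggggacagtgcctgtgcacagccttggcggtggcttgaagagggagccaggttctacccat
Ptprm (second strongest): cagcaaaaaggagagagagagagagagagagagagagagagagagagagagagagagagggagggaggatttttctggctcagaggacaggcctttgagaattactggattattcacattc

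Most broad peaks were only moderately wide. Their median width was 1741 bp (quartiles 1609.5 and 1996.5 bp). In all, 646 peaks (75.2%) measured 1500 to 1999 bp, 183 (21.3%) measured 2000 to 2999 bp and 30 (3.49%) measured 3000 bp or more, up to 5966 bp. The 3 peaks just inside the limit were 1500 bp wide and were assigned to 4933412O06Rik, Zfp503 and Gm16294, with matched −log10 p of 5.00, 5.46 and 10.6. The 3 just outside were 1499 bp wide and were assigned to Rab17, Jam2 and Fer, with 10.9, 10.9 and 12.8. The −log10 p is the strength that the peak caller gave, and the matched value is the smaller one of both replicates.

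The joined width overstated the width seen in either replicate. The median width was 1586 bp in the first-listed replicate and 1580 bp in the second-listed replicate. Both calls reached 1500 bp by themselves in 324 broad peaks (37.7%, 95% Wilson interval 34.5 to 41.0), only the first-listed call did in 225 (26.2%), only the second-listed call in 198 (23.1%), and neither in 112 (13%). Of the peaks of 2000 to 2999 bp, 149 of 183 (81.4%) reached 1500 bp in both calls, as did all 30 peaks of 3000 bp or more. The overlap of both calls took a median 77.4% of the broad peak's width and 52.6% of the narrower peak's width. The summits of both calls were a median 329 bp apart in broad and 113 bp apart in narrower peaks. Peaks of 3000 bp or more were thus broad in each replicate, while 112 of the 859 passed the limit through joining alone.

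**Figure D1:**
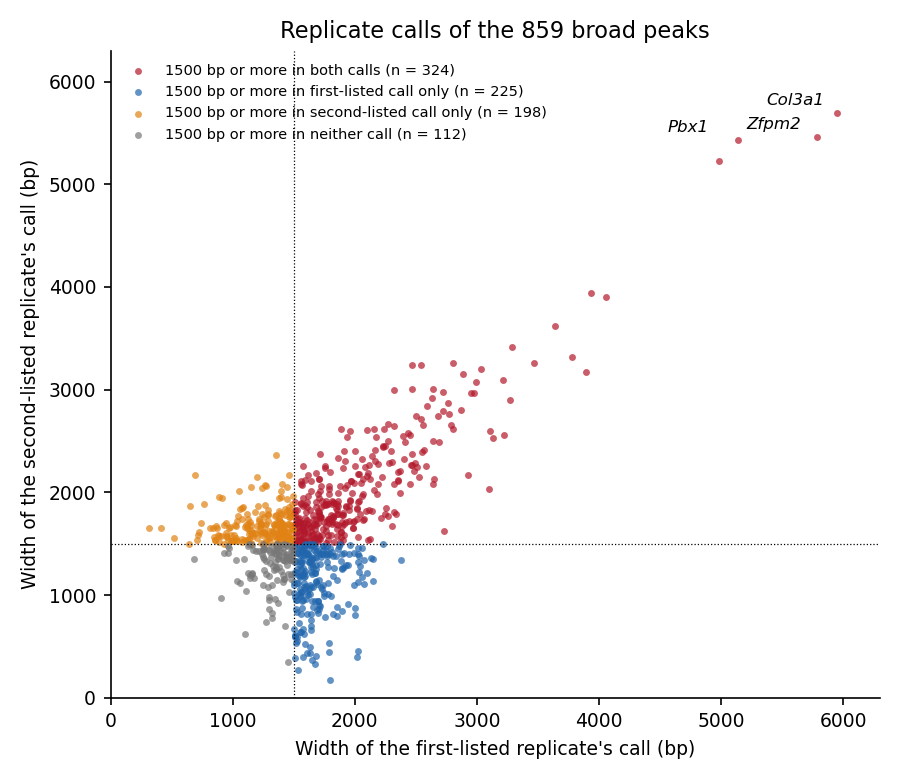
Width in bp of the first-listed call (x axis) against the second-listed call (y axis) for the 859 broad peaks, 1 point per peak, with dotted lines at 1500 bp. The 324 red points were 1500 bp or wider in both calls, and the 112 grey points in neither.

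Broad peaks were stronger than narrower ones in the first-listed replicate above all. The median −log10 p was 10.2 (quartiles 6.92 and 13) against 6.89 in the first-listed replicate, and 7.42 (5.52 and 10.6) against 6.61 in the second-listed replicate. For the matched value the medians were 6.30 and 5.43, a difference of 0.874, which was 0.305 at a width limit of 2000 bp. The first-listed value was the higher one in 557 broad peaks (64.8%) and in 51.3% of narrower peaks. The median of the first-listed minus the second-listed value was 1.93 in broad and 0.195 in narrower peaks. The difference in strength between broad and narrower peaks thus moved with the replicate, and which library was the first-listed one is not known. A value of 10 or more was reached by 51.7% of broad peaks in the first-listed replicate and by 26.2% in the second-listed replicate.

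**Figure D2:**
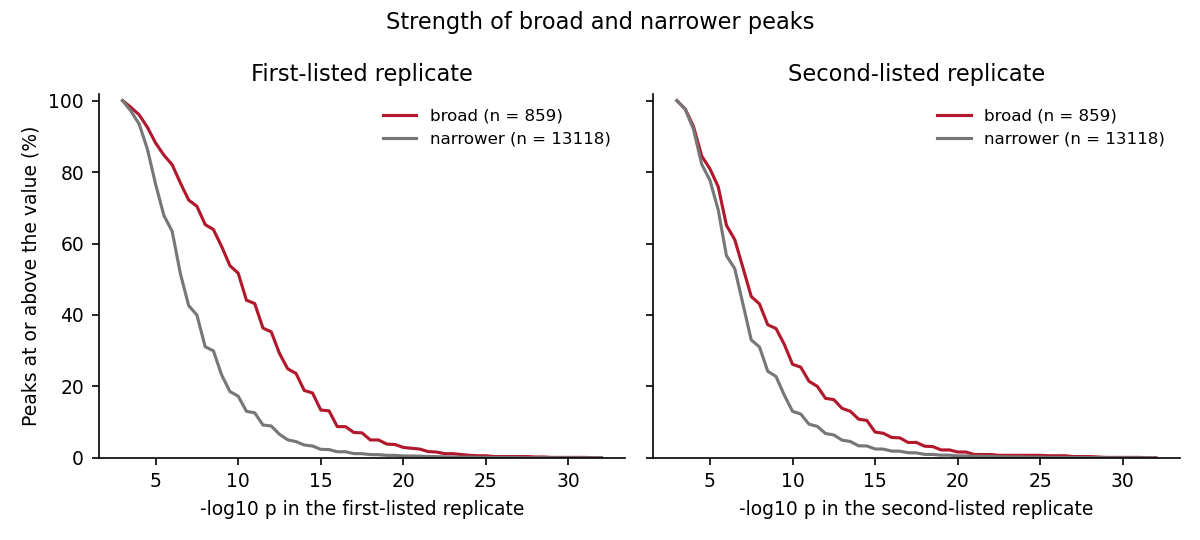
Share of peaks in percent (y axis) whose −log10 p was at or above the value on the x axis, in the first-listed (left) and second-listed (right) replicate. The broad curve (red, n = 859) lies well above the narrower curve (grey, n = 13118) on the left, with medians of 10.2 and 6.89, and less so on the right, with 7.42 and 6.61.

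Library totals are not given in the files, so the sequencing depth is unknown. For values that came from the genome-wide background, the height of a peak in fragments could be read back from the p-value. This held for 58.1% of broad and 58.3% of narrower peaks in the first-listed replicate, and for 56.3% and 64.0% in the second-listed replicate. The background was 2.61 and 2.39 fragments. The median height was 19 fragments in broad and 14 in narrower peaks in the first-listed replicate, and 15 and 13 in the second-listed replicate. Where the height could be read, a median broad peak thus rested on a pile-up of 15 to 19 fragments at its summit.

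Broad peaks passed the reproducibility limit more often than narrower ones, but most did not pass it. The IDR, or irreproducible discovery rate, compares how both replicates rank their calls and estimates how many would not replicate. A global IDR of 0.05 or less was reached by 3.33% of all peaks. Among broad peaks it was 88 of 859 (10.2%, 8.39 to 12.5), and among narrower peaks 377 (2.87%). The difference of 7.37 points fell to 2.10 points when narrower peaks were reweighted to the −log10 p of broad ones. The share was 0.512% below 500 bp, 2.67% at 500 to 999 bp, 9.38% at 1000 to 1499 bp, 10.4% at 1500 to 1999 bp and 10.9% at 2000 to 2999 bp. At 3000 bp or more it was 1 of 30, with a wide interval (0.591 to 16.7%). The lowest score in the list, 48, was given to 167 broad peaks (19.4%) and to 42.9% of narrower peaks.

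The 10 strongest broad peaks covered no start site, and none was among the 10 widest. They had matched −log10 p of 16.9 to 29.0 and widths of 1502 to 2532 bp. The strongest was 1556 bp wide and lay between genes at chr3:121584398-121585953, assigned to Slc44a3, a choline transporter-like gene (−log10 p 31.1 in the first-listed and 29.0 in the second-listed replicate). A peak of 2159 bp in intron 1 of Ptprm, a receptor tyrosine phosphatase, reached 28.8 and 28.2. A peak of 2377 bp in intron 8 of Pgm5, which encodes a protein of actin-based adhesions also named aciculin, reached 25.2 and 31.4. These 3 peaks were strong in both replicates alike.

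The other peaks of the strongest 10 were assigned to 4930545H06Rik (matched −log10 p 21), 1700028M03Rik (21), Parp16, an enzyme of the endoplasmic reticulum (20.8), Astn1 (19.9), Cd47, a surface protein that inhibits phagocytosis (18.8), Zfp608 (17.9) and Lima1, an actin-binding protein (16.9). Only the one at Parp16, shown above, had a summit within 3 kb of a TSS. Of the 10, only the one at Parp16 held an AP-1 sequence in the 121 bp around the summit. Across the 859 broad peaks the rank correlation of width and matched −log10 p was -0.0893, and across all 13977 peaks it was 0.296, where points share their libraries and the 2 measures come from 1 call.

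The widest broad peaks, in contrast, sat over gene starts. Of the 10 widest, 8 covered at least 1 TSS of the GENCODE annotation, and the other 2 lay in introns of Arid5b, a DNA-binding cofactor of mesenchymal genes. The widest, of 5966 bp at chr1:45308962-45314927, covered the start of Col3a1, which encodes the type III collagen of vessel walls. Its calls were 5951 and 5690 bp wide, with −log10 p of 21 and 11.8, and it was the only peak of 3000 bp or more with a global IDR under the limit (0.0204). The next, of 5788 bp, covered the start of Zfpm2, a cofactor of GATA factors in heart development (calls of 5788 and 5458 bp, −log10 p 13.9 and 8.19). In both peaks the widths of the calls were close, and the second-listed value was the lower one.

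Of the remaining widest peaks over a TSS, one of 5229 bp was at Zfp608 (−log10 p 3.70 and 12.1), one of 4101 bp at Tnrc18 (7.71 and 5.84) and one of 3777 bp at Omd, a proteoglycan of bone and connective tissue (14.8 and 4.91). The peak at Fzd7, a Wnt receptor, was 3720 bp wide and weak in both replicates (3.70 and 5.84). A peak of 3894 bp at chr1:71652202-71656095 was assigned to the noncoding gene Apol7d, but it also covered the start of Fn1, which encodes fibronectin and runs the opposite way (13.9 and 8.27). This matrix gene was singled out after its values were seen. The global IDR of these peaks, Zfpm2 included, was above the limit at 0.158 to 0.759.

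More broad than narrower peaks covered a TSS, and the share went up with width. The count was 130 of 859 (15.1%, 12.9 to 17.7) against 737 of 13118 (5.62%, 5.24 to 6.03), a difference of 9.52 percentage points (95% Newcombe interval 7.24 to 12.1). Among broad peaks it was 11.3% (9.08 to 14) at 1500 to 1999 bp, 24.6% (18.9 to 31.3) at 2000 to 2999 bp and 40% (24.6 to 57.7, 12 of 30) at 3000 bp or more. A longer stretch meets any point more often by its length alone, and the part of length in this difference was not tested. The intervals here cover counting error over peaks only, and peaks are not replicates.

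The position of the summit is a single point in peaks of any width. Its share within 3 kb of a TSS also went up with width among broad peaks, from 23.5% at 1500 to 1999 bp to 35.5% at 2000 to 2999 bp and 43.3% at 3000 bp or more. A summit within 250 bp of a TSS was found in 46 broad peaks (5.36%, 4.04 to 7.07) and in 5.39% of narrower peaks, a difference of -0.0345 points (-1.41 to 1.72). A summit 250 bp to 3 kb from the nearest TSS was found in 184 broad peaks (21.4%) and in 16.8% of narrower peaks, a difference of 4.66 points (1.97 to 7.60). Together, the summits of 230 broad peaks (26.8%, 23.9 to 29.8) and of 22.1% of narrower peaks lay at promoters, that is within 3 kb of a TSS, a difference of 4.63 points (1.69 to 7.77). At a width limit of 2000 bp the difference was 14.4 points (8.19 to 21.1), and by the width of the second-listed calls alone 8.94 points (5.06 to 13.1). With promoters taken as 1 kb, the difference was 1.38 points with an interval that included 0 (-0.872 to 3.94). Without the peaks that covered a TSS, the difference turned to -3.79 points (-6.20 to -1.03). Leaving out these peaks takes more from the broad than from the narrower group by construction.

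Of the other summits of broad peaks, 296 were intronic (34.5% against 38.6%, a difference of -4.14 points, -7.35 to -0.792, and of -10.8 points at a width limit of 2000 bp), 322 were intergenic (37.5% against 37.4%, 0.0712 points, -3.21 to 3.46, but 4.53 points, 0.860 to 8.25, without peaks that covered a TSS) and 11 were exonic (1.28% against 1.84%, -0.564 points, -1.18 to 0.457). In the annotation deposited with the list, which places a peak by its whole extent, promoters held 26.1% of broad and 20.98% of narrower peaks, introns 29.1% and 36.3%, distal intergenic sequence 37.0% and 37.2%, and exons 5.94% and 3.98% (a difference of 1.958 points, 0.522 to 3.77, opposite in sign to that by summit). Both ways of placing a peak gave broad peaks a higher promoter share and a lower intron share. Of the broad peaks annotated as intronic, 78 of 250 (31.2%) lay in the first intron, against 35.4% of narrower ones (a difference of -4.20 points, -9.79 to 1.94).

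**Figure D3:**
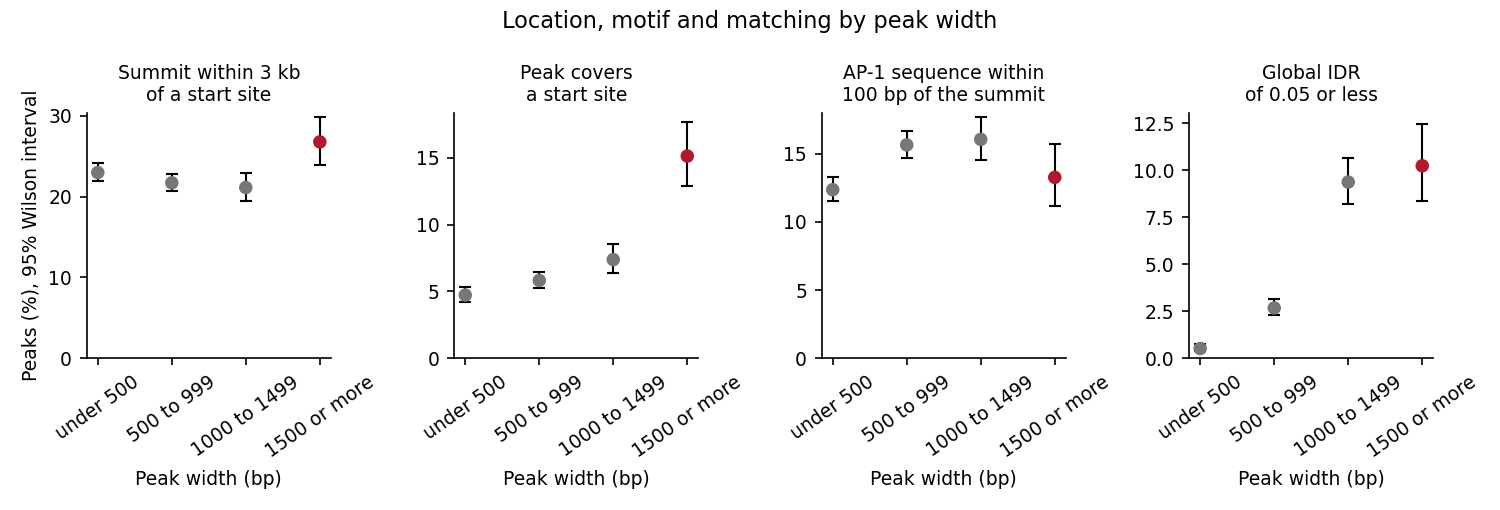
Share of peaks in percent (y axes, bars are 95% Wilson intervals) in 4 classes of peak width in bp (x axes), for a summit within 3 kb of a TSS, a TSS under the peak, an AP-1 sequence within 100 bp of the matched summit and a global IDR of 0.05 or less. Broad peaks (red) stand highest for the covered TSS at 15.1%, and near the 1000 to 1499 bp class for the IDR, at 10.2% against 9.38%.

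The 130 broad peaks over a TSS differed from the other 729 in base composition and in the balance of the replicates. Their median width was 1930 bp against 1716 bp, and their median GC content 50.2% against 41.0%. Their median −log10 p was 7.50 in the first-listed and 8.22 in the second-listed replicate, where the other broad peaks had 10.2 and 7.14. The first-listed median was the higher one only in the broad peaks away from start sites. A global IDR of 0.05 or less was reached by 11 of the 130 (8.46%) and by 77 of the 729 (10.6%).

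Where all start sites under a broad peak pointed the same way, in 116 of the 130, the peak reached a median 775 bp upstream and 1136.5 bp downstream of the TSS nearest to the summit. It reached farther downstream in 75 of them (64.7%). In the 696 narrower peaks of this kind the medians were 257 and 308 bp, with 55.2% reaching farther downstream, a difference of 9.48 points whose interval included 0 (-0.270 to 18.4). Protein-coding genes started in 103 of the 130 broad peaks, and there were 103 such genes, 0.474% of 21728 protein-coding gene symbols in GENCODE. The gene named for the peak was among the genes starting in it in 104 of 130 cases.

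The 12 peaks over a TSS of 3000 bp or more also included those at Zfp36l1, an mRNA decay factor (3320 bp, −log10 p 23.2 and 8.74), Nfib, a nuclear factor I gene (3273 bp, 9.37 and 4.39), Meis2, a homeodomain gene (3261 bp, 5.42 and 9.10), and Hmga2, a chromatin protein of growing mesenchyme (3236 bp, 7.17 and 6.61). Their summits had scores of 48 to 353, all below 540, the score of a global IDR of 0.05.

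CpG-rich broad peaks formed a small group with no AP-1 sequence at the summit. There were 58 of them (6.75%, against 6.93% of narrower peaks), and 44 covered a TSS. AP-1 at the matched summit was found in 0 of the 58, which allows a share of up to 5.17% (taking 3 counts as the limit), and in 33 of 909 narrower CpG-rich peaks (3.63%). The difference had an interval that included 0 (-5.05 to 2.67 points), so this lack was not shown to be particular to broad peaks. Their median −log10 p was 6.15 and 7.42, and 0 of the 58 had a global IDR of 0.05 or less. The printed summits of Tnrc18, Fzd7 and Zfp36l1 belong to this group.

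The AP-1 sequence, spelled TGACTCA and searched on both strands within 100 bp of the matched summit, was found at 14.3% of all 13977 summits. It was found in 114 broad peaks (13.3%, 11.2 to 15.7) and 14.4% of narrower peaks, a difference of -1.08 points (-3.28 to 1.42). Its direction was not stable, since it was 0.0831 points within 50 bp of the summit, 0.270 points at a width limit of 2000 bp and 0.865 points by the width of the first-listed calls alone, each with an interval that included 0. Because the matched summit lay within 1 bp of the midpoint of both replicate summits in 23.5% of broad and 84.4% of narrower peaks, the replicate summits were used as well. There the share was lower in broad peaks, at 10.9% against 13.5% in the first-listed replicate (-2.55 points, -4.56 to -0.214) and at 9.43% against 12.5% in the second-listed replicate (-3.10 points, -4.97 to -0.893). Among peaks with a global IDR of 0.05 or less, the matched summits held it in 13 of 88 broad peaks (14.8%, 8.84 to 23.7) and 104 of 377 narrower ones (27.6%, 23.3 to 32.3), a difference of -12.8 points (-20.4 to -2.96). At the first-listed summits of these peaks the difference was -14.03 points (-21.1 to -4.53), and at the second-listed summits -10.1 points (-17.8 to -0.129). Among peaks under the IDR limit, broad ones thus had the sequence at the summit less often. A match is a description of the letters and not a binding site.

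AP-1 sequences were spread over more of the region in broad peaks. At 500 to 1000 bp from the matched summit there were 0.292 per kb (exact Poisson interval 0.257 to 0.331) around broad and 0.217 (0.209 to 0.225) around narrower peaks. Within 250 bp the densities were 0.701 (0.624 to 0.785) and 0.732 (0.712 to 0.753), and beyond 1000 bp, up to 2500 bp, 0.198 (0.181 to 0.215) and 0.195 (0.190 to 0.199). The matched summit lay a median 137 bp from the nearest replicate summit in broad and 51 bp in narrower peaks, and the part of this in the profile was not tested. Broad peaks reach into the zone of 500 to 1000 bp by their width, as can the 2154 narrower peaks of 1000 to 1499 bp. The part of width in the profile was not tested. Over the whole peak, broad peaks held 734 AP-1 sequences, or 0.452 per kb, against 0.187 per kb in the 2 kb on either side of their edges, and narrower peaks 0.639 against 0.220 per kb. At least 1 AP-1 sequence was present in 489 broad peaks (56.9%) and in 32.8% of narrower peaks. A longer peak meets a sequence more often by its length alone, and the part of length in this difference was not tested. Of the 489 broad peaks, 299 held 1, 141 held 2, 43 held 3 and 6 held 4 or more.

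**Figure D4:**
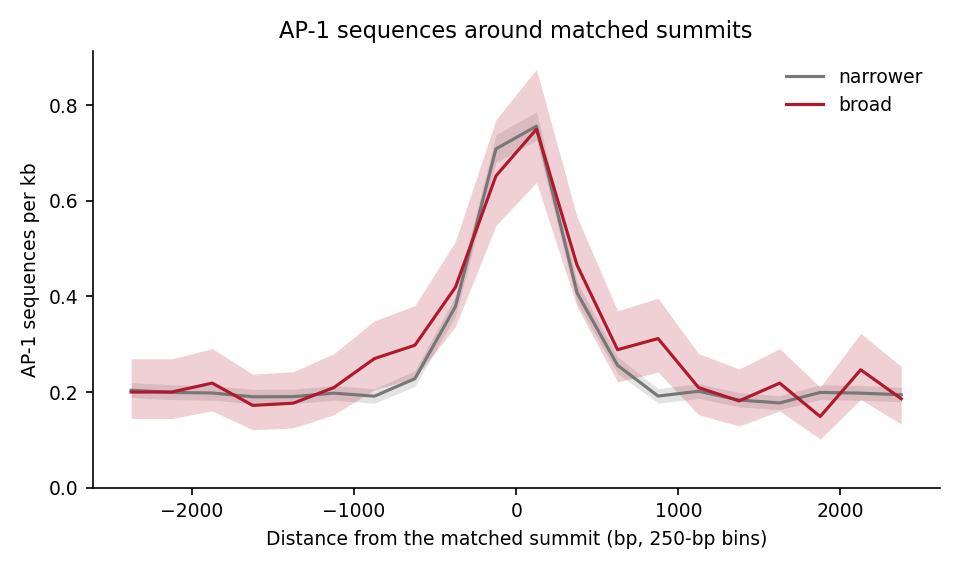
AP-1 sequences per kb (y axis) in bins of 250 bp by distance from the matched summit in bp (x axis), with bands for the 95% counting interval. The broad curve (red) and the narrower curve (grey) meet at the centre, and the broad curve stays higher at 500 to 1000 bp, at 0.292 against 0.217 per kb.

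The TEAD sequence, searched as AGGAATGC, AGGAATGT, GGGAATGC or GGGAATGT on both strands, was found at 7.45% of all summits, at 64 broad summits (7.45%, 5.88 to 9.40) and at 7.45% of narrower summits (a difference of 0.00274 points, -1.64 to 2.003). TTTCAT or TTTCCT is a short sequence that is frequent by chance. It was present in 2 windows of 101 bp, 1000 bp to either side of the matched summit, at 38.9% of all peaks. At the summit it was found in 43.1% of all peaks, with 46.3% in broad and 42.9% in narrower peaks (3.46 points, 0.0425 to 6.91). That difference was 4.11 points (0.691 to 7.56) at the first-listed summits and 1.84 points, with an interval that included 0 (-1.53 to 5.27), at the second-listed summits. The E-box CAGCTG was at 10.9% and 11.6%, the RUNX sequence TGTGGTT at 7.80% and 6.64%, the forkhead sequence TGTTTAC at 3.73% and 3.53%, the GC box GGGCGG at 6.05% and 6.91%, and the CArG box of serum response factor at 1.75% and 1.39%. Each of these 5 differences had an interval that included 0. Over all summits the shares were 11.5%, 6.71%, 3.54%, 6.86% and 1.41% in this order.

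Broad peaks were assigned to 679 of the 5246 genes with a peak (12.9%). Of these, 563 had 1 broad peak and 116 had 2 or more, and the peaks of 93 genes were all broad. Arid5b led with 8 broad peaks among its 15 peaks, of 1559 to 4061 bp and with matched −log10 p of 3.66 to 9.10. Zfp608 had 7 of 20 (1557 to 5229 bp) and Asap1, a regulator of Arf GTPases at focal adhesions, 7 of 20 (1599 to 2132 bp). Mir6344 had 5 of 17, Col5a2 5 of 13 and Gm20125 5 of 31. Col3a1 had 4 of 12, Marcks, a membrane-bound actin regulator, 4 of 28, Cubn 4 of 11 and Foxp1, a forkhead factor, 4 of 17. In all 7 genes tied at 4, and Efna5, Vmp1 and A1bg had them too, with narrower widest peaks. None of the 8 broad peaks of Arid5b had a global IDR of 0.05 or less or an AP-1 sequence at the summit.

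Genes of the extracellular matrix and transcription factors of the outflow tract and mesenchyme had the highest shares of genes with a broad peak among the lists examined. Assignment to the nearest gene gave a peak to 20.1% of 21755 protein-coding gene IDs in GENCODE and a broad peak to 2.6%. Among 24 matrix genes, 21 had a peak and 8 (33.3%) a broad one. Among 41 transcription factors, 26 had a peak and 11 (26.8%) a broad one. Of the genes of each list that had a peak, 38.1% and 42.3% had a broad one, beside 40% (2 of 5) of the AP-1 genes and 36.4% of the TEAD and Hippo genes, where the share over all genes with a peak was 12.9%. The lists were made with earlier results of these data known, and no test was run on them. A gene with more peaks has more chances of a broad one, and the number of peaks per gene was not taken into account.

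The 2 widest peaks assigned to the matrix list were at the fibrillar collagen genes Col3a1 and Col5a2. At Col5a2, a chain of type V collagen, the peak over the TSS was 2407 bp wide (−log10 p 13.9 and 14.7, global IDR under the limit), and a peak of 3111 bp lay 122205 bp upstream (12.2 and 5.10). Col3a1 lies next to it on chromosome 1, and beside the 5966 bp peak it had broad peaks of 1528, 1767 and 1537 bp, with matched −log10 p of 9.37, 7.31 and 9.82. The peak of 1767 bp began 421 bp past the end of the widest one. By the matched value the peak at the start was the strongest broad one of both genes, but not in each replicate. The second-listed value was 14.4 for the Col3a1 peak of 1528 bp and 11.8 at the start, and the first-listed value was 13.9 at the start of Col5a2 and also for its peaks of 1631 and 1542 bp.

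**Figure D5:**
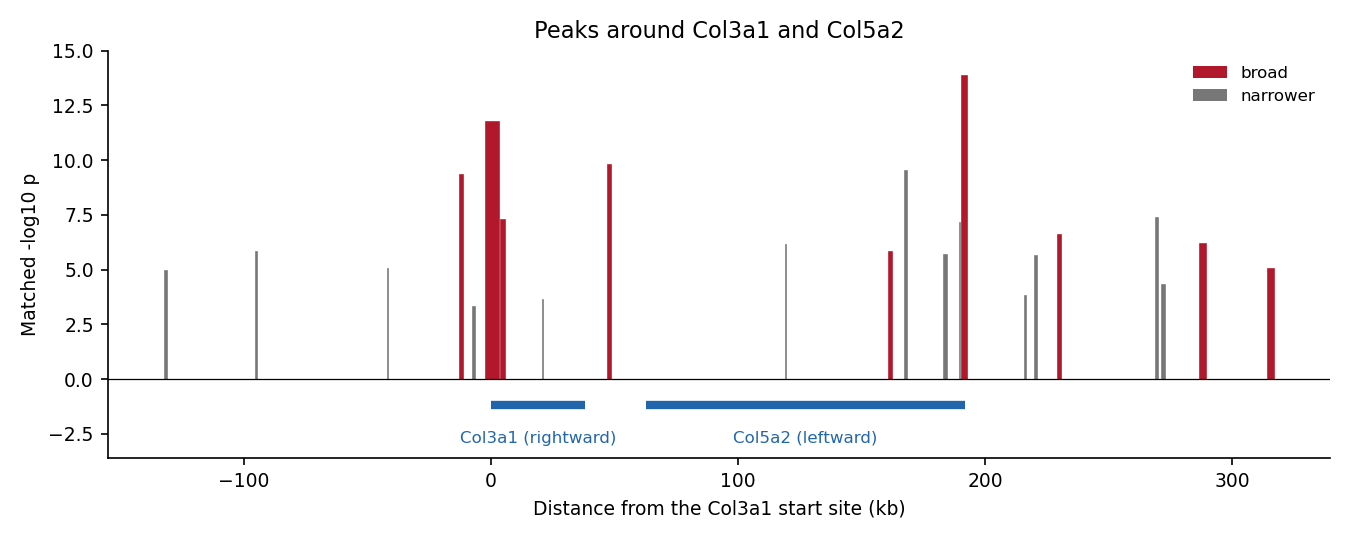
Peaks around Col3a1 and Col5a2 by distance from the Col3a1 TSS in kb (x axis), drawn to scale in width, with the matched −log10 p as height (y axis), broad peaks in red, narrower peaks in grey and genes in blue. The red bars over the starts of Col3a1 (11.8) and Col5a2 (13.9) are the tallest.

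Other matrix genes had broad peaks at their starts. Col8a1, a short-chain collagen of vessel walls, had one of 2412 bp there (−log10 p 9.06 and 4.55), Thbs1, which encodes thrombospondin, one of 2046 bp (5.42 and 17.8), and Dcn, which encodes decorin, one of 2273 bp that was its only peak (3.35 and 8.25). Away from starts, Col1a2 had 3 broad peaks upstream, of 1835 to 2919 bp and with matched −log10 p of 3.10 to 7.14. The broad peaks of Lox, which encodes the collagen crosslinking enzyme (3006 bp, 16.8 and 3.33), and of Tnc, which encodes tenascin C (1846 bp, 12.03 and 14.7), lay more than 28 kb from the assigned TSS, though the summit at Tnc was within 3 kb of another TSS of GENCODE. The replicates differed most at Thbs1 and Lox, in opposite directions. By start site, 6 of the 24 matrix genes, Fn1 among them, began inside a broad peak, where 0.474% of all protein-coding genes did.

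The transcription factors with a broad peak over a TSS included Gata6, a GATA factor of the outflow tract (2481 bp, −log10 p 7.71 and 7.92), Meis1 (1923 bp, 13.9 and 7.42), Meis2 (3261 bp), Prrx1, a mesenchymal homeodomain factor (1513 bp, 4.33 and 6.96), and Runx2, the osteoblast regulator (1735 bp, 6.15 and 9.98). Meis1 had 3 adjoining broad peaks within its promoter region, of 2392, 1700 and 1923 bp. Foxp1, Mef2c, Twist1, Zeb2 and Sox11 were also among the 11. Their broad peaks covered no TSS of GENCODE, but the one at Sox11 (1559 bp) lay 693 bp from its TSS, and the deposited annotation put 2 of the 4 at Foxp1 at a start of its own transcript set.

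Of 25 smooth muscle contractile and actin genes, 11 had a peak and 3 (12%) a broad one. That is 27.3% of those with a peak, against 12.9% over all genes with a peak. Acta2, which encodes smooth muscle alpha-actin, had one of 1605 bp over its TSS at chr19:34254265-34255869 (calls of 1426 and 1605 bp, −log10 p 7.59 and 7.42). Cald1, which encodes the actin-binding caldesmon, had one of 2014 bp over a TSS (6.21 and 4.30) and one of 1911 bp in an intron (13 and 3.03), and Pgm5 had the strong intronic one described above. The values at Acta2 were nearly equal in both replicates, and its global IDR was above the limit.

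In each of the 2 signalling lists 11.5% of the genes had a broad peak, against the 2.6% of all protein-coding genes given above. Among their genes with a peak the shares were 15.8% and 13%, close to the 12.9% over all genes with a peak. Of 26 TGF-beta and BMP genes, 19 had a peak and 3 a broad one: Tgfbr3, a co-receptor (1639 bp, −log10 p 13.9 in both replicates), Bmpr2, a BMP receptor (1766 bp, 5.00 and 13.97), and Id2, a target gene (1741 bp, 6.15 and 7.42). Of 26 growth factor signalling genes, 23 had a peak and 3 a broad one, Igf1 (1563 bp, 4.66 and 10.3), Spry2 (2885 bp, 7.71 and 5.84) and Dusp6 (1800 bp, 6.92 and 5.84), the last a pair of feedback inhibitors of the ERK pathway. Only Tgfbr3 among these 6 had a global IDR of 0.05 or less.

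Of 18 TEAD and Hippo pathway genes, 11 had a peak and 4 (22.2%) a broad one. Wwtr1, which encodes TAZ, had one of 2183 bp in an intron (6.92 and 4.39) and Vgll3, a TEAD cofactor, one of 2041 bp over its start (5.00 and 5.53) and one of 1568 bp. Ccn1, a secreted target of YAP and TAZ that is also known as Cyr61, had 2 that lay next to each other, of 1576 bp (9.06 and 15.7) and 2272 bp (7.17 and 14.7). Ankrd1, another target, had one of 1568 bp between genes that passed the IDR limit (21 and 12.8). A peak of 2032 bp over the start of Ccn2, the connective tissue growth factor gene, was assigned to Gm15270 (4.71 and 14.9) and so is not in the count. Of 12 AP-1 genes, 5 had a peak and 2 a broad one, Atf3 over its start (1661 bp, 3.21 and 5.84) and Bach2.

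Of 12 regulators of the ductus arteriosus, 8 had a peak and 2 a broad one, where 20.1% and 2.6% of all protein-coding genes did. The 2 are 25% of those with a peak, against 12.9% over all genes with a peak. The study named some of these genes for their peaks in these same libraries, so the count is not independent. Jag1, a Notch ligand, had 3 among its 15 peaks. The one over its start measured 2167 bp, but its calls were 691 and 2167 bp wide (−log10 p 7.61 and 7.42), so it was broad in the second-listed replicate only. The other two, of 1664 and 2508 bp, lay over 480 kb from the assigned TSS, and the latter covered the start of the noncoding gene Gm14064. Twist1, a mesenchymal regulator, had one of 2145 bp at 81863 bp from its TSS (11.1 and 8.25).

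No gene of the short marker lists of other cell types had a broad peak, which covers these listed genes only. Most genes of the smooth muscle contractile and actin list had none either, with a broad peak at 3 of 25. Peaks were assigned to 6 of 9 endothelial, 1 of 8 cardiomyocyte, 2 of 7 neuronal and 1 of 5 immune marker genes, and a broad peak to 0 of each. With 2.6% of protein-coding genes carrying a broad peak, lists this short cannot show a lack, and known endothelial genes outside them had one, such as Cd34 and Cd93, which were chosen after their values were seen. ChIP-seq peaks do not measure expression, so the labelled cell type was not checked by them.

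Broad peaks were unevenly spread over the chromosomes. Their share of the peaks ran from 3.23% on chromosome 9 (21 of 651) to 9.35% on chromosome 1 (132 of 1412, 7.94 to 10.98), where Col3a1, Col5a2, Fzd7 and Fn1 lie, and it was 7.995% on chromosome 15 (69 of 863). On the X chromosome it was 0 of 93, which allows a share of up to 3.23%, again taking 3 counts. Without chromosome 1, the promoter difference was 4.40 points, the intronic difference -4.30 points and the AP-1 difference at matched summits -1.70 points, near the values with it, while the TEAD difference was -0.565 points, with an interval that included 0 as before. Another peak of the list lay within 10 kb of 477 broad peaks (55.5%) and of 47.1% of narrower peaks (8.39 points, 4.94 to 11.8), and within 1 kb of 25.03% and 26.01% (-0.981 points, -3.86 to 2.11). Broad peaks thus had neighbours more often at 10 kb, while the interval at 1 kb included 0.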

How the data were processed

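The authors trimmed and filtered paired 151-base reads, aligned them to mm10 with BWA at a mapping quality of at least 13, ran MACS2 separately on both precipitations with their matching inputs (p-value limit 0.001) and matched the calls with the IDR procedure. Versions are not given in the sources used here. The deposited list held a scaled IDR score, the −log10 p-value of each replicate and of the matched peak, the −log10 IDR, and positions, widths and summits in bp. The matched peak equalled the union of both calls and its −log10 p-value the smaller of both, in every row. What the deposited annotation headed as a q-value was that replicate value from the second-listed call. Library totals were not given.

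Positions are mm10, counted from 1. Sequence and repeat masking came from RefSeq GRCm38.p6, and start sites, exons and transcripts from the basic set of GENCODE M21. Genes are those that the authors' annotation assigned. A summit was at a promoter within 3 kb of a TSS, otherwise exonic, intronic or intergenic. Shares have 95% Wilson intervals, differences Newcombe intervals and densities exact Poisson intervals, which cover counting error over peaks only. No p-value was computed over peaks. Peak heights were read from Poisson tails of the best-fitting background. The tools were pandas 2.3.3 and NumPy 2.4.6 under Python 3.11.15, with SciPy 1.17.1 for intervals and matplotlib 3.10.9 for plots. The interval and motif steps were tested on simulated data.

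The members and gene lists were chosen with earlier results of these data known. Named were the 10 widest and the 10 strongest broad peaks, the 3 on each side of the limit, the 10 genes with most broad peaks and list genes with a broad peak. One gene that this rule names is not reported here. The printed sequences, the peaks of 3000 bp or more over a TSS, Fn1 and Ccn2 were added after values were seen. Alternatives were other width limits, an IDR limit, merged neighbours, each replicate alone, 1 kb promoters, other motif windows and reweighted narrower peaks.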

Additional observations from a re-analysis of the deposited data

How the results depend on the processing

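Of 93 alternative values, 62 kept their call. The call was whether the interval excluded 0 and on which side, or for counts whether they stayed within 1.5 times. Values without an interval could keep their call without staying close to the value given. Of these 62, 18 changed sign: 4 of the AP-1, 6 of the intergenic and 8 of the TEAD differences, each with an interval that included 0 where one was computed. The promoter difference was 14.4 points and the intronic one -10.8 at a limit of 2000 bp. The promoter difference was 6.47 points among peaks with a global IDR of 0.05 or less and 1.38 with promoters of 1 kb, both with intervals that included 0, and it reversed to -3.79 without peaks over a TSS. The intronic difference was -6.64, -2.31 and -0.290 points under these 3 last settings and -1.69 with a lower width limit, each with an interval that included 0. The intergenic difference was -4.15 points at a limit of 2000 bp, with an interval that included 0, and 4.53 (0.860 to 8.25) without peaks over a TSS. The AP-1 difference was -12.8 points under the IDR limit, -14.03 and -10.1 under it at first- and second-listed summits, -2.55 at first-listed and -3.10 at second-listed summits, all with intervals below 0, but 0.426 at a lower width limit, 0.270 at 2000 bp, 0.865 by first-listed widths alone and 0.0831 within 50 bp, and the TEAD difference was -5.04 under the IDR limit. The excess of broad peaks with a global IDR of 0.05 or less fell from 7.37 to 2.10 points when narrower peaks were reweighted to the same −log10 p. There were 1623 broad peaks in 1170 genes at a limit 250 bp lower, 213 in 190 at 2000 bp, 88 in 82 under the IDR limit and 1514 in 1158 after merging neighbours within 1000 bp. Each replicate alone gave 522 to 549 broad peaks in 440 to 451 genes, and 324 in 284 were broad in both calls. The difference in median −log10 p was 0.874 for the matched value and 0.803 to 3.34 in each replicate alone. For the matched value at a limit of 2000 bp it was 0.305. With reweighted narrower peaks the AP-1 difference was -2.44 points, against -1.08. Other causes of these shifts were not tested. Peaks outside promoters, a comparison with narrower peaks of at least 500 bp, the list without chromosome 1 or without peaks over a TSS, broad calls in both replicates and replicate summits under the IDR limit were chosen after seeing the data. No paired analysis was possible because the list named replicates only by order and held no Input values.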
